A study of Mus musculus with 16 samples.

Results

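Btg1, Btg2 and Btg3 are antiproliferative genes of the BTG/TOB family, and they were followed here through every group of an array study of CD4+CD8+ thymocytes. The members were all probe sets whose single gene symbol in the platform annotation was Btg1, Btg2 or Btg3. This found 1 probe set for Btg1 and 1 for Btg2 among 12422 probe sets, so 2 of the 3 genes were measured, out of 8251 genes with a probe set of their own. The 1 probe set that lists Btg3 also lists another gene, so it gave no value for Btg3.

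BTG and TOB proteins recruit the CCR4-NOT deadenylase, which shortens the poly(A) tails of mRNAs and so limits their life and translation. Btg1 and Btg2 are known as brakes on cell division that help to keep resting T cells quiescent. Btg2 is also known as an immediate-early gene of growth factor and phorbol ester signals and as a p53 target, and Btg3 as a partner of the cell cycle factor E2F1.

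Gene expression was read on 16 Affymetrix arrays from total RNA of double-positive (CD4+CD8+) thymocytes, all of them from fetal thymic organ culture, where whole fetal thymus lobes mature outside the body. The BDC2.5 transgenes encode the antigen receptor of a CD4 T cell clone that can cause diabetes. NOD is a strain prone to autoimmune diabetes, and B6g7 is C57BL/6 carrying NOD's own MHC haplotype, so all 6 groups share that haplotype. The groups were BDC2.5 cells on the B6g7 background without peptide (n = 3) and at 16 h of peptide (n = 3), BDC2.5 cells on the NOD background without peptide (n = 3) and at 16 h (n = 3), wild-type B6g7 cells (n = 2) and wild-type NOD cells (n = 2). The labels give no peptide name or dose, no gestational age and no transgene promoter. They do not say whether wild-type cultures had peptide or whether replicates came from separate animals, so the p-values measure the spread between these arrays, which may be technical.

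Array medians lay between 54.7 and 59.1 intensity units. One set of 6 arrays, made up of number 3 of each BDC2.5 group and number 2 of each wild-type group, stood apart in a measure of RNA quality: the log2 signal of the 3' minus the 5' beta-actin probe set was 1.36 to 1.96 in these and 2.24 to 3.27 in the other 10. Each group holds 1 such array, so these arrays are spread evenly over the peptide and strain comparisons and are 1 of 3 against 1 of 2 in the transgene comparisons. Genes listed as double-positive markers were measured in all groups. Among them, the recombinase gene Rag1 was 543 to 4745 over the 16 arrays. Dntt, which encodes terminal transferase, was 864 to 4624, and Cd4 was 158 to 327. Among genes listed for B cells the brightest was Ighm (673 to 1888). Among those listed for mature T cells it was Gimap4 (104 to 1253). The purity of the samples was not tested.

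The promoters of the measured genes are shown for reference, and no link between them and the peptide differences was tested. Each line gives the 250 bases before the annotated transcript start from RefSeq (build GRCm38.p6), 5' to 3' on the gene's own strand. Capitals mark TGACG, the core of the cyclic AMP response element (CRE, full form TGACGTCA), or its reverse complement. Both genes' entries were found in the table.
Btg1, chr10:96616751-96617000, plus strand: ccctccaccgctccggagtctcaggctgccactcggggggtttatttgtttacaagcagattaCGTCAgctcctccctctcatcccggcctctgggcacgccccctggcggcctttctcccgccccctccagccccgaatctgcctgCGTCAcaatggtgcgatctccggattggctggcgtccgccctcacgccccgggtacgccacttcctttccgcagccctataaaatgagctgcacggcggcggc
Btg2, chr1:134079156-134079405, minus strand: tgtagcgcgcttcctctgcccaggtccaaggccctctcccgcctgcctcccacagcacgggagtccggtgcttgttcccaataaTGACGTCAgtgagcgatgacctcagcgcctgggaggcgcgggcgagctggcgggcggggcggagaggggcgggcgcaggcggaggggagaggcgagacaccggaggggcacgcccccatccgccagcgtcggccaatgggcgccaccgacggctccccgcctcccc

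The Btg2 promoter holds the full CRE, a palindrome, 166 bases before the start. Of 32536 mouse promoter windows of this length, 1.56% hold it. The Btg1 window holds no full CRE and 2 separate cores on the other strand, 187 and 103 bases before the start, and 17.9% of the windows hold at least 1 core on either strand. The full element contains the core on both strands, so its matches overlap. The CCAAT box (CCAAT on either strand, in 33.8% of windows) matched once in the Btg1 window, 80 bases before the start, and at 173 and 34 bases before the start of Btg2. The GC box (GGGCGG on either strand, in 33.0% of windows) had 2 matches in Btg1 and 3 in Btg2, and the G and C content was 65.2% and 73.2%. These are letter matches and were not tested as binding sites.

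Btg2 was lowest in BDC2.5/B6g7 thymocytes at 16 h of peptide. Its intensity was 1143, 1924 and 1604 in the arrays numbered 1, 2 and 3 without peptide and 887, 1121 and 825 with peptide. Every peptide array lay below every array without peptide, the nearest being 1121 and 1143. The mean went from 1557 ± 393 to 944 ± 156 (SD, n = 3 each). The log2 difference of -0.70 ± 0.22 (limma estimate ± SE, 95% interval -1.16 to -0.24, or 0.615 times) was lower in 3 of 3 same-numbered pairs, at -0.37, -0.78 and -0.96. It did not pass adjustment over all probe sets (limma adjusted p = 1, threshold 0.05).

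The background of that comparison was as follows. limma called 1 of 12422 probe sets at an adjusted p under 0.05 (0.00805%), or 3 with the replicate number as a block, and Btg2 was in neither set. At an unadjusted p under 0.05, 141 probe sets were lower with peptide (1.14%), and in 377 (3.03%) every peptide array lay below every array without peptide. Btg2 was in both of these sets, at place 65 of all probe sets by p. Without the 6 arrays of differing beta-actin ratio the difference was -0.57, and its unadjusted limma p was no longer under 0.05.

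Cell type markers were summed on the same B6g7 arrays. The summed intensity of 10 of 11 double-positive markers was 11073 to 12411 without peptide and 7055 to 10535 with it, with no overlap. Such a sum weighs the brightest genes most. By log2 difference 8 of the 10 were lower and 2 higher, with 0 called, where 48% of all probe sets were higher. The mean of Rag1 went from 1830 to 810 and that of Cd3g from 813 to 1094. The summed intensity of 13 of 16 myeloid and dendritic markers was 832 to 1214 without peptide and 1203 to 1666 with it, which overlap. The largest single part of that sum was Apoe, the gene of apolipoprotein E, singled out after the values were seen, at 266 to 597 without peptide and 505 to 971 with it. The other 12 summed to 566.5 to 665.1 and 694.5 to 729.1, with no overlap. They were dim, with B6g7 means from 20.0 (Fcer1g) to 120.4 (C1qc), and did not move alike. Tyrobp went from 37.3 to 56.3 and C1qb from 34.9 to 30.3. Of all 13, 9 were higher and 4 lower by log2 difference. The lowest value of any probe set was 7.77, so a listed value does not show that a marker was present. The part of these markers in the Btg2 difference was not tested. Fewer cells of a type and less RNA per cell cannot be told apart in such bulk samples.

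In NOD, Btg2 differed less between the peptide states than its arrays spread. Its intensity was 1381, 1513 and 1807 without peptide and 1582, 1199 and 1356 with peptide. The groups overlapped, with the highest peptide array above 2 of the 3 arrays without peptide. The log2 difference was -0.18 ± 0.22 (limma, 95% interval -0.65 to 0.28, adjusted p = 1), with pairs at 0.20, -0.34 and -0.42. limma called 0 probe sets there (0%), with 207 at an unadjusted p under 0.05 and 0 called with the replicate block. The double-positive markers summed to 9271 to 14457 without peptide and 8787 to 10269 with it, and the myeloid markers to 677 to 800 and 667 to 725.

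Averaged over both strains, Btg2 gave a log2 difference of -0.44 ± 0.15 (limma, 95% interval -0.77 to -0.12, adjusted p = 0.998). It was lower in 5 of 6 same-numbered pairs. limma called 3 probe sets (0.0242%) in this average, or 7 with the replicate block, and Btg2 was 1 of 213 probe sets (1.71%) that were lower at an unadjusted p under 0.05. Without the 6 arrays of differing beta-actin ratio the Btg2 difference was -0.32, and its unadjusted limma p was no longer under 0.05.

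**Figure D1:**
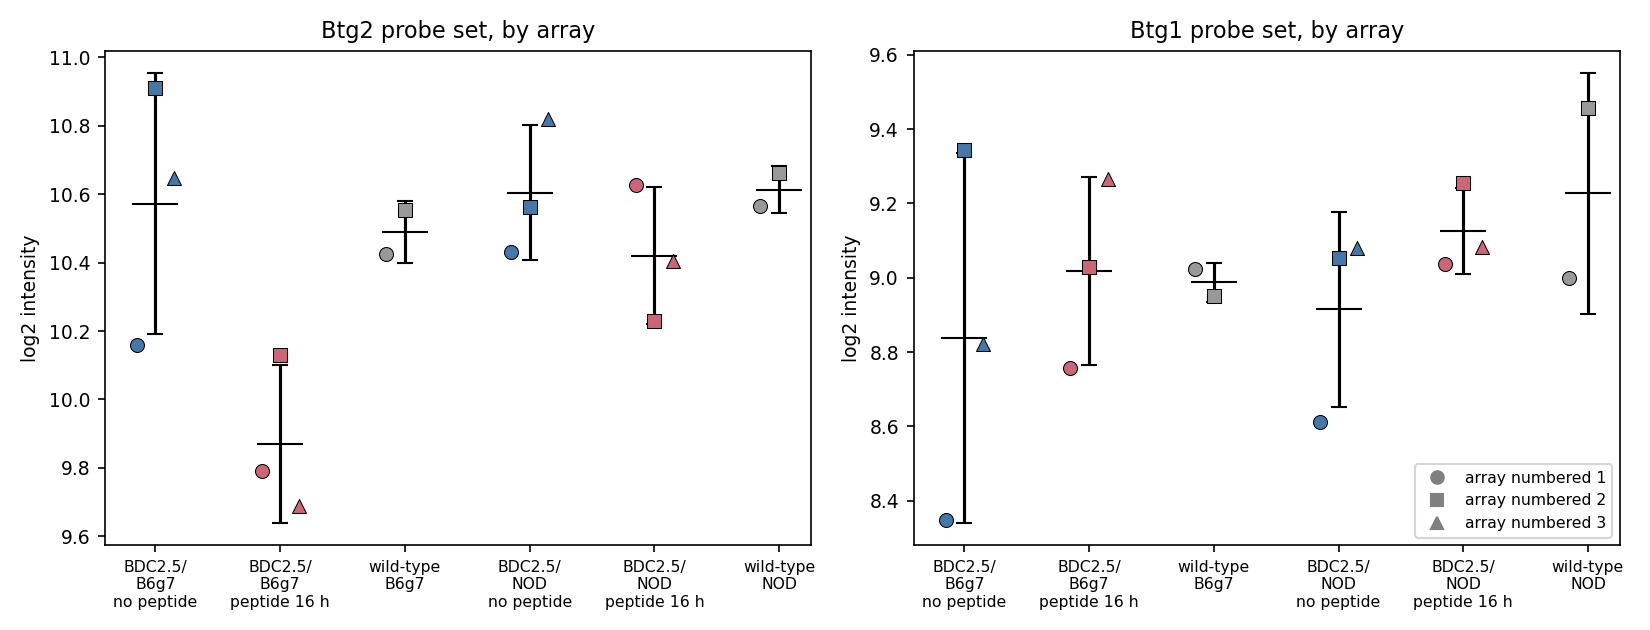
Log2 intensity of the Btg2 (left) and Btg1 (right) probe sets on each of the 16 arrays, by group on the x axis; symbols give the array's number, the horizontal bar the group mean and the error bar its SD. The Btg2 arrays of BDC2.5/B6g7 with peptide, at intensities of 825 to 1121, lie below all other Btg2 arrays, the nearest at 1143. How often a group lies below all other arrays over all probe sets was not counted. The Btg1 groups overlap.

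Btg1, the other measured family member, went the other way in its group means. In B6g7 its intensity was 326, 650 and 452 without peptide and 433, 522 and 615 with peptide. The arrays without peptide enclosed those with peptide, so the groups overlapped fully. The log2 difference was 0.18 ± 0.25 (limma, 95% interval -0.35 to 0.71, adjusted p = 1), with pairs at 0.41, -0.32 and 0.44. In NOD the intensity was 391, 531 and 541 without peptide and 525, 611 and 542 with peptide. These groups overlapped too, with the peptide arrays in the upper part of the range. The log2 difference was 0.21 ± 0.25 (limma, 95% interval -0.32 to 0.74, adjusted p = 1), higher in 3 of 3 pairs by 0.42, 0.20 and 0.00. Without array 1 of the NOD cultures that had no peptide, the NOD difference was 0.06. The mean over both strains was 0.19 ± 0.18 (limma, 95% interval -0.18 to 0.57, adjusted p = 0.998), and 0.07 without array 1 or 0.32 without array 2 of the B6g7 cultures that had no peptide.

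Relative to Btg1 on the same array, Btg2 was lower with peptide in all 6 same-numbered pairs. This log ratio takes out what an array's scale adds to both genes alike; its level depends on the 2 probe sets, so only its change is read. In B6g7, log2 Btg2 minus log2 Btg1 was 1.81, 1.57 and 1.83 without peptide and 1.03, 1.10 and 0.42 with it. The groups were apart, the peptide array numbered 3 being farthest down. In NOD it was 1.82, 1.51 and 1.74 without peptide and 1.59, 0.97 and 1.32 with it. These groups overlapped, since the peptide array numbered 1 lay above the array numbered 2 without peptide. The change was -0.88 in B6g7 and -0.39 in NOD, with a mean of -0.64, against a pooled SD within groups of 0.27. The pairs changed by -0.78, -0.46 and -1.40 in B6g7 and by -0.23, -0.54 and -0.42 in NOD. Without the arrays numbered 3 the mean was -0.50, from -0.62 in B6g7 and -0.38 in NOD. This ratio was chosen after its values were seen, so it is given as a description with no test. Btg2 alone was already apart in B6g7, and how often other pairs of probe sets are apart was not counted.

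**Figure D2:**
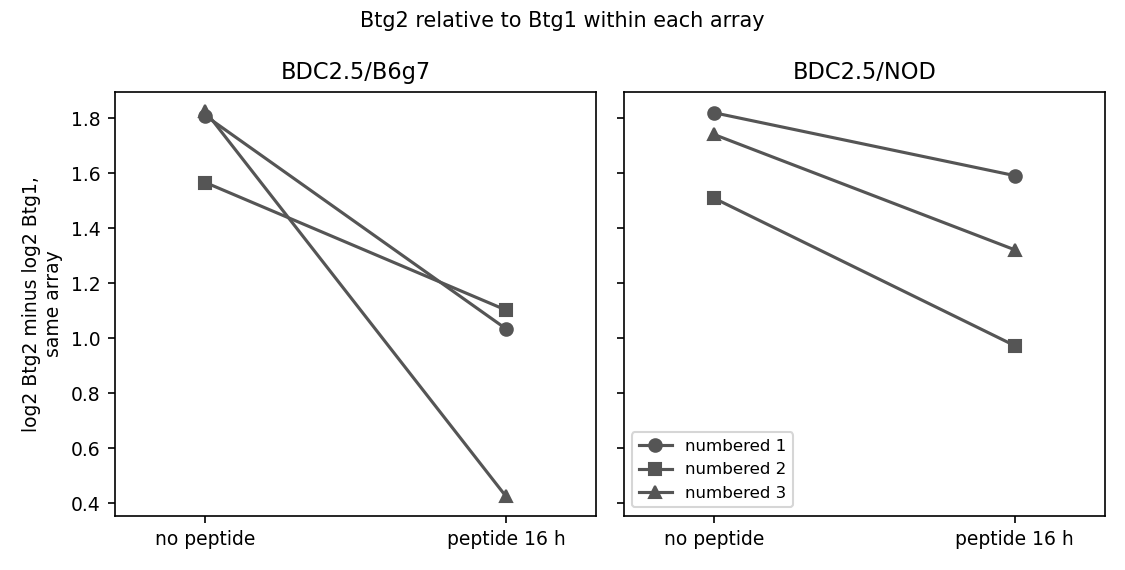
Log2 Btg2 minus log2 Btg1 on the same array (y axis) without peptide and at 16 h of peptide (x axis) in BDC2.5/B6g7 (left) and BDC2.5/NOD (right); lines join arrays of the same number. All 6 lines go down, with mean changes of -0.88 in B6g7 and -0.39 in NOD.

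The strain comparison at 16 h of peptide set NOD against B6g7 cells at the same peptide time. The labels do not say whether peptide and dose were alike. Btg2 was 1582, 1199 and 1356 in NOD and 887, 1121 and 825 in B6g7. Every NOD array lay above every B6g7 array. The log2 difference, NOD minus B6g7, was 0.55 ± 0.22 (limma, 95% interval 0.09 to 1.01, or 1.46 times, adjusted p = 0.707), higher in 3 of 3 pairs by 0.84, 0.10 and 0.72. limma called 61 probe sets (0.491%), or 129 with the replicate block, and Btg2 was in neither set. At an unadjusted p under 0.05, 341 were higher in NOD (2.75%), and in 801 (6.45%) every NOD array lay above every B6g7 array. Without the 6 arrays of differing beta-actin ratio the Btg2 difference was 0.47, no longer under an unadjusted limma p of 0.05. Its unadjusted limma p rose above 0.05 without the B6g7 peptide array numbered 1 (0.0634) or 3 (0.0814). It also did so without the NOD peptide array numbered 1 (0.0932), and stayed below 0.05 without each of the others. This comparison uses the same 3 B6g7 peptide arrays as the B6g7 peptide response, so the low Btg2 values enter both. The myeloid and dendritic markers of these arrays summed to 667 to 725 in NOD and 1203 to 1666 in B6g7, and their part in the difference was not tested. Most of that gap was Apoe, at 111 to 127 in NOD and 505 to 971 in B6g7, and Apoe was also lower in NOD without peptide (114 to 163 against 266 to 597) and in wild-type cells (102 to 124 against 328.5 to 822.4). The other 12 markers summed to 555.6 to 599.9 in NOD and 694.5 to 729.1 in B6g7 at 16 h. Of all 13, 2 were higher in NOD and 11 lower, 6 of these at an unadjusted limma p under 0.05 and 1 called. Of 10 double-positive markers, 9 were higher in NOD and 1 lower, the lower one called. Of all probe sets, 51.8% were higher in NOD, and 2.93% were lower at that unadjusted p. The part of the double-positive markers was not tested either. Btg1 gave 0.11 ± 0.25 (limma, 95% interval -0.43 to 0.64, adjusted p = 1).

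Without peptide, neither gene differed between strains beyond the spread of its arrays. Btg2 gave 0.03 ± 0.22 (limma, NOD minus B6g7, 95% interval -0.43 to 0.50) and Btg1 0.08 ± 0.25 (95% interval -0.46 to 0.61), each at adjusted p = 1. limma called 33 probe sets there (0.266%), or 69 with the replicate block. Whether the Btg2 response itself differed between strains was tested as an interaction, which gave 0.52 ± 0.30 (limma, 95% interval -0.14 to 1.17, adjusted p = 1), and for Btg1 0.03 ± 0.35 (95% interval -0.72 to 0.79, adjusted p = 1). limma called 0 probe sets for the interaction (0%), 147 having an unadjusted p under 0.05 and 0 being called with the replicate block.

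Wild-type cells gave levels near those of BDC2.5 cells without peptide. Btg2 was 1375 and 1503 in wild-type B6g7 and 1516 and 1619 in wild-type NOD. The NOD arrays were both above the B6g7 arrays, as in 814 probe sets (6.55%), by a log2 difference of 0.12 ± 0.26 (limma, 95% interval -0.44 to 0.69, adjusted p = 1). Btg1 was 521 and 494 in wild-type B6g7 and 511 and 702 in wild-type NOD, which overlapped (0.24 ± 0.30 by limma, adjusted p = 1). limma called 11 probe sets between the wild-type strains (0.0886%), or 32 with the replicate block.

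The transgene comparison set BDC2.5 cells without peptide against wild-type cells. For Btg2 the log2 difference was 0.08 ± 0.24 in B6g7 (limma, 95% interval -0.43 to 0.60) and -0.01 ± 0.24 in NOD (-0.53 to 0.51). For Btg1 it was -0.15 ± 0.28 in B6g7 (limma, 95% interval -0.75 to 0.45) and -0.31 ± 0.28 in NOD (-0.91 to 0.28). The adjusted p was 1 in B6g7 and 0.999 in NOD for both genes, and limma called 10 probe sets in B6g7 (0.0805%) and 7 in NOD (0.0564%).

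**Figure D3:**
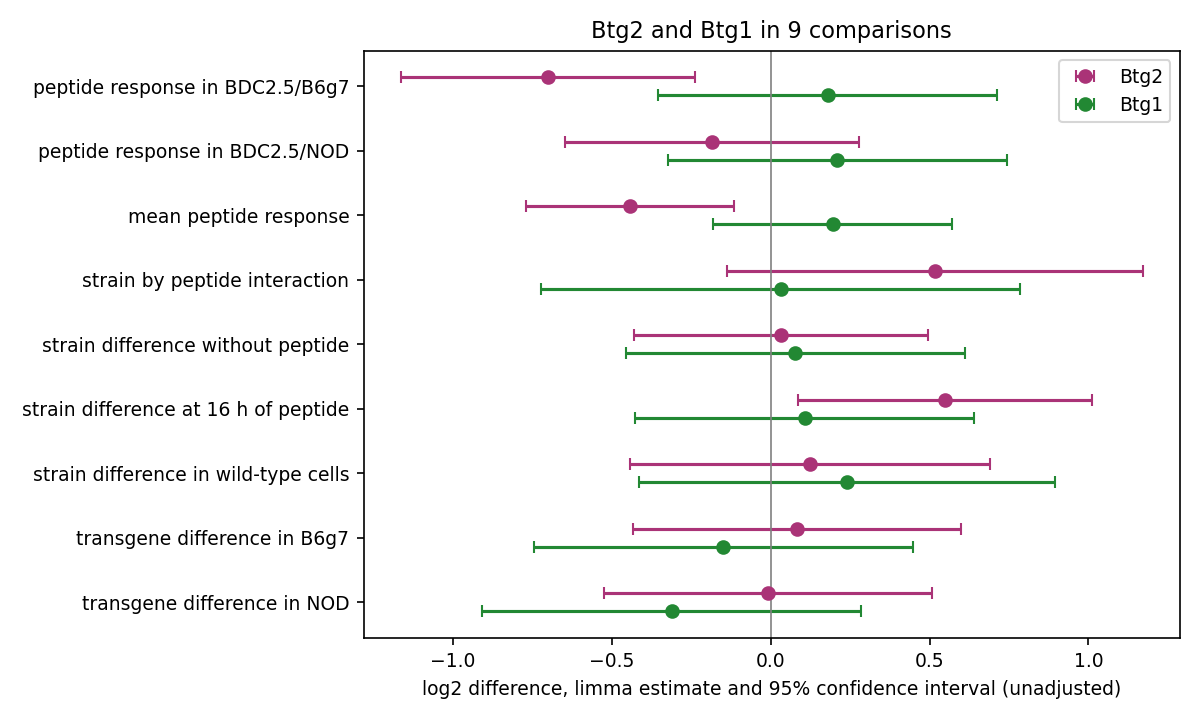
Log2 difference (x axis) of Btg2 and Btg1 in the 9 comparisons (y axis), as limma estimates with 95% confidence intervals not adjusted for multiple testing. In the fit to all 16 arrays, the Btg2 intervals lie wholly below 0 for the B6g7 peptide response (-1.16 to -0.24) and the mean response (-0.77 to -0.12). They lie wholly above 0 for the strain difference at 16 h (0.09 to 1.01), which did not hold with every single array left out. Without the 6 arrays of differing beta-actin ratio these estimates were -0.57, -0.32 and 0.47 in that order, and each 95% interval then included 0. The Btg1 intervals all include 0.

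By mean log2 intensity, the order of the groups for Btg2 was wild-type NOD (10.61), BDC2.5/NOD without peptide (10.60), BDC2.5/B6g7 without peptide (10.57), wild-type B6g7 (10.49), BDC2.5/NOD with peptide (10.42) and BDC2.5/B6g7 with peptide (9.87). The first 5 groups lay within steps of 0.01 to 0.08, below the pooled SD within groups of 0.24. The last step, of 0.55, was larger than that SD and had no overlap of arrays. For Btg1 the order was wild-type NOD (9.23), BDC2.5/NOD with peptide (9.12), BDC2.5/B6g7 with peptide (9.02), wild-type B6g7 (8.99), BDC2.5/NOD without peptide (8.91) and BDC2.5/B6g7 without peptide (8.84). No 2 neighbours in that order differed by more than 0.11, against a pooled SD of 0.30.

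Within groups, Btg1 and Btg2 deviated in the same direction on some arrays and in opposite directions on others. Their deviations from the group means had a Pearson correlation of 0.57 over the 16 arrays, against 0.25 for the log2 values themselves, as a description of probe sets that share each array's RNA and scale. The B6g7 array without peptide numbered 1 was the low one of its group for both genes, at -0.49 for Btg1 and -0.41 for Btg2. The one numbered 2 was the high one, at 0.51 and 0.34. These were the largest deviations of either gene, and the correlation was not computed without them. The B6g7 peptide array numbered 3 lay at 0.25 for Btg1 and -0.18 for Btg2. The NOD peptide array numbered 2 lay at 0.13 and -0.19. The 6 arrays of differing beta-actin ratio lay on both sides of their group means, from -0.04 to 0.25 for Btg1 and from -0.18 to 0.21 for Btg2.

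The genes whose pattern over the 16 arrays was most like that of Btg2 were Acss1, which encodes a mitochondrial acetyl-CoA synthetase (Pearson r = 0.85), Rmnd5a, a ubiquitin ligase subunit gene (0.85), and Ccnd3, which encodes the G1 cyclin D3 (0.84), among 4831 other genes. Over the 10 arrays of like beta-actin ratio the same correlations were 0.84, 0.75 and 0.73, at places 15, 64 and 93. The B6g7 peptide difference was -1.22 for Acss1, -0.76 for Rmnd5a and -1.09 for Ccnd3 on the log2 scale, and in NOD it was -0.07, -0.31 and -0.45. The genes were picked by likeness to Btg2 over the same arrays, the low B6g7 peptide arrays among them. Their lower values there follow in part from that choice and are no separate evidence. For Btg1 the most alike were Wsb2 (0.88), Herc4 (0.85) and the elongation factor gene Ell2 (0.85). Over the 10 arrays these correlations were 0.92, 0.87 and 0.93, at places 5, 56 and 2. The arrays share RNA source and scale, and no p is given for these likenesses.

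Of the other family genes, Tob1 and Btg4 had probe sets of their own and Tob2 had none. Tob1, a family member also linked to T cell quiescence, had intensities of 25.4 to 68.5 over the BDC2.5 arrays by its brighter probe set. Its mean was 46.2 ± 20.3 without peptide and 38.4 ± 12.6 with peptide in B6g7, and 43.8 ± 21.4 and 47.3 ± 10.7 in NOD (SD, n = 3 each). The mean peptide response was -0.01 for Tob1 and -0.02 for Btg4, a gene known from oocytes, whose values stayed between 11.5 and 13.8 on all 16 arrays. Both had adjusted p = 0.998 or more by limma, and the table holds no detection calls for such low values.

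The genes of CCR4-NOT, of other deadenylases and of their partners were split in direction. Of 13 measured deadenylase genes and partners, 7 were higher and 6 lower with peptide in the mean of both strains (median log2 0.03, all probe sets -0.02), with 0 called and 1 at an unadjusted limma p under 0.05. Over all probe sets, 445 of 12422 (3.58%) were under that p, and 5263 (42.4%) were higher with peptide. Cnot7, a catalytic subunit that BTG proteins bind, gave 0.09, and its paralog Cnot8 gave -0.32 (adjusted p = 0.998 by limma for both). The poly(A)-binding protein gene Pabpc4 gave 0.49 (limma adjusted p = 0.998), from 1.04 in B6g7 and -0.07 in NOD. Pabpc1, its paralog, gave 0.22, from 0.51 in B6g7 and -0.07 in NOD.

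BTG proteins are known to slow the passage from G1 into S phase. Among the genes of that step, the G1 cyclins with their kinases and inhibitors, the retinoblastoma family and E2F factors, 4 of 18 were higher and 14 lower in the mean peptide response (median -0.12, all probe sets -0.02), with 0 called and 4 at an unadjusted p under 0.05, 1 higher and 3 lower. Of all probe sets, 42.4% were higher in that response and 3.58% had such an unadjusted p. Ccnd3 had the smallest p of the list at -0.77 (limma adjusted p = 0.378). It was called once among 12 fits that each left out 1 array, at -0.91 without the B6g7 peptide array numbered 2 (limma adjusted p = 0.0417). Ccnd2, which encodes cyclin D2, gave 1.32 (limma adjusted p = 0.998), with 1.58 in B6g7 and 1.06 in NOD. It was 0.83 without the B6g7 peptide array numbered 3 and 0.63 without the 6 arrays of differing beta-actin ratio. Cdkn2d, a gene of a cyclin-dependent kinase inhibitor, gave -0.46 (limma adjusted p = 0.998), with -0.88 in B6g7 and -0.03 in NOD. Ccnd1, which encodes cyclin D1 and is known to be repressed by Btg2, gave -0.09 (limma adjusted p = 0.998).

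Lymphocyte quiescence genes, with Btg1 and Btg2 left out, were 6 of 17 higher and 11 lower (median -0.02, all probe sets -0.02), with 0 called and 0 at an unadjusted p under 0.05. Of all probe sets, 42.4% were higher and 3.58% had such a p, so the direction counts of this list and the next are read beside those shares. The smallest p values were those of Slfn2 at 0.36, Klf4 at 0.11 and Tsc2 at 0.12. p53 and its targets were 5 of 15 higher and 10 lower (median -0.06), with 0 called and 0 at an unadjusted p under 0.05, Mdm4 at -0.36, Perp at 0.23 and Sfn at -0.13 having the smallest p. Perp was 0.06 without the B6g7 peptide array numbered 3 and 0.01 without all 6 arrays of differing beta-actin ratio, and Sfn was -0.03 without NOD array 1 of the cultures that had no peptide. Cdkn1a, the classical p53 target that arrests the cell cycle, gave 0.04.

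Btg2 was first described among the TPA-induced sequences (TIS), a set of phorbol ester-induced early genes. Of the 8 other TIS genes measured, 6 were higher and 2 lower in the mean peptide response (median 0.35, all probe sets -0.02). At an unadjusted limma p under 0.05 there were 3 of them, all higher. Of all probe sets, 42.4% were higher and 3.58% had such a p. Nr4a1, which encodes the nuclear receptor Nur77, rose by 1.87 (limma adjusted p = 0.0138) and was the 1 TIS gene called. The call was lost without the B6g7 array numbered 2 or 3 without peptide, array 1 of B6g7 with peptide or array 1 of NOD without it (1.82 to 1.89, limma adjusted p = 0.0574 to 0.0712), and without all 6 arrays of differing beta-actin ratio (1.38, adjusted p = 0.0808). Fos gave 0.91 (limma adjusted p = 0.998, or 0.0458 with the replicate block and 0.0130 with a term for the 6 arrays of differing beta-actin ratio) and Zfp36l1, an mRNA-decay factor gene, 0.78 (adjusted p = 0.998), while Egr1 gave 0.25, Zfp36 -0.17 and Ifrd1 -0.59. On the same scale Btg2 gave -0.44 at an array time of 16 h, and no earlier time was measured.

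**Figure D4:**
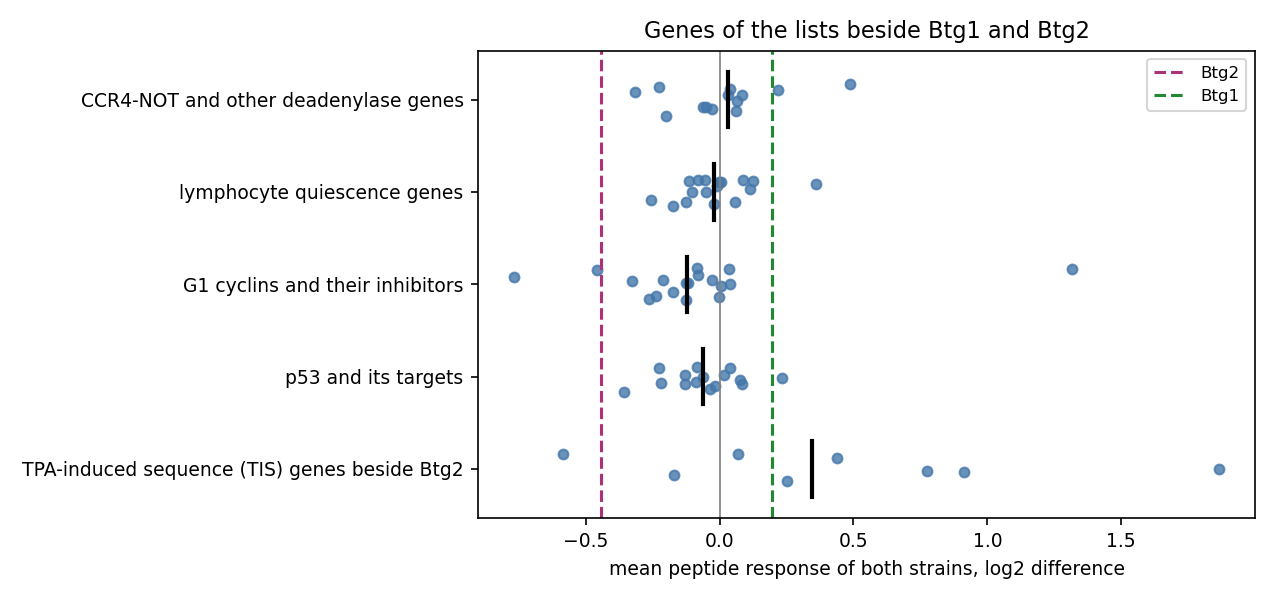
Mean peptide response of both strains (x axis, log2 difference) for the genes of 5 lists (y axis), 1 point per gene with its list's median as a black bar; dashed lines mark Btg2 (-0.44) and Btg1 (0.19). The TIS genes other than Btg2 have a median of 0.35 and the G1 cyclin list one of -0.12.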

How the data were processed

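The values the authors deposited are linear intensities, 1 for each probe set on each of 16 arrays (7.77 to 14085), with like medians; scaling, background correction and probe set summary are not given in the sources used here. They were log2-transformed as they stand. After 66 control probe sets were left out, 12422 were tested; the platform annotation names 1 gene for 10833, several for 396 and none for 1193. limma 3.58.1 in R 4.3.3 (lmFit, eBayes with trend) was fitted to all 16 arrays with 1 mean per group (10 residual and 3.60 prior degrees of freedom), two-sided, with Benjamini-Hochberg adjustment within each of 9 comparisons. Values after ± are SE for differences and SD for means. The number of arrays limits the precision. The fit was tested on simulated data.

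The members, lists, alternatives and naming rule were chosen with earlier results of these data known. All probe sets of Btg1 and Btg2 were named, up to 3 genes per list by smallest p for the mean response, and the 3 most alike genes (above-median mean); genes named beyond that were chosen for their known role. Lists used each gene's brightest probe set. Same-numbered BDC2.5 arrays deviated together (correlations 0.165 to 0.842 across probe sets), so the replicate number was tried as a block. That block also joined wild-type arrays by number, which their deviations did not follow. Against BDC2.5 arrays without peptide, wild-type array 2 had correlations of 0.689 (B6g7) and 0.828 (NOD) with number 3. With number 2 they were 0.058 and -0.499. The other settings were quantile normalization, log2(value + 16), a filter on low values, a term for the 6 arrays of differing beta-actin ratio, leaving them out, fits of only the groups compared, and leaving out single arrays. Mouse Btg1b and Btg1c resemble Btg1, and whether its probe set reads them was not tested. Promoters come from RefSeq tables (GRCm38.p6).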

Additional observations from a re-analysis of the deposited data

How the results depend on the processing

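The differences of Btg1 and Btg2 stayed uncalled by limma (adjusted p under 0.05) in all 9 comparisons, under each of 7 other settings and with each array left out in turn; the lowest adjusted p was 0.318, for Btg2 in B6g7 with peptide, with a term for the 6 arrays of differing beta-actin ratio. With the replicate number as a block no Btg call changed, and Btg2 had adjusted p = 0.381 in B6g7 with peptide, 0.449 in the mean response and 0.349 between strains at 16 h. Signs of uncalled differences turned without the 6 arrays for Btg1 and Btg2 between strains without peptide (-0.0136 and -0.0367), Btg1 between wild-type strains (-0.0263), Tob1 (0.1043) and Cdkn1a (-0.1) in the mean response. They also turned for Btg2 in the NOD transgene comparison with the term (6e-04) and for Tob1 with quantile normalization (0.0043). With single arrays left out, Btg1 ranged from -0.0658 to 0.4318 for B6g7 peptide, -0.2218 to 0.2757 for the interaction, -0.1681 to 0.3295 and -0.0217 to 0.2313 between strains without and with peptide, and -0.4019 to 0.0957 for the B6g7 transgene, and kept its sign for NOD peptide (0.0585 to 0.2919) and the mean response (0.0721 to 0.3209). Btg2 ranged from -0.1738 to 0.2023 between strains without peptide, -0.0868 to 0.2893 for the B6g7 transgene and -0.116 to 0.0779 for the NOD transgene, but kept its sign for B6g7 peptide (-0.908 to -0.5319), the mean response (-0.5464 to -0.3584) and strains at 16 h (0.4458 to 0.6796). The mean response ranged from -0.1981 to 0.1786 for Tob1, -0.0483 to 0.0148 for Btg4, -0.1466 to 0.0189 for Ccnd1 and -0.0356 to 0.1569 for Cdkn1a. Of the 23 list genes named, 17 turned sign or moved by over 1.5 times in the mean response when 1 array or another was left out.

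Counts of called probe sets moved more, and the cause was not tested. For B6g7 peptide (1) the count was 2 with quantile normalization and with log2(value + 16), 3 with the replicate block, 4 with the term, 3 without the 6 arrays and 0 with only the groups compared. For NOD peptide (0) it was 1 with the term. For the mean response (3) it was 7 with the block and 8 with the term. Between strains without peptide (33) it was 69 with the block, 82 with the term and 0 with only the groups compared. At 16 h (61) it was 129, 144 and 22 in the same order, and 36 without the 6 arrays. Between wild-type strains (11) it was 32, 47 and 0. For the B6g7 transgene (10) it was 1 with only the groups compared, and for the NOD transgene (7) it was 4 with the filter on low values and 0 both without the 6 arrays and with only the groups compared. With single arrays left out the counts were 0 to 10 for B6g7 peptide and for the mean response, the 10 in each without the B6g7 peptide array numbered 2, and 15 to 24, 15 to 42 and 2 to 7 for the strain comparisons without peptide, with peptide and of wild-type cells. They were 6 to 8 and 2 to 5 for the transgene in B6g7 and NOD.

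Each group has 2 or 3 arrays, which limits the precision; the B6g7 peptide interval of Btg2 runs from -1.16 to -0.24. No detection calls were used, so signal over background could not be judged for dim probe sets.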
